A study of Homo sapiens with 8 samples.

Results

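Heat shock proteins and chaperones help other proteins to fold and keep them from aggregating. The RNAs of this machinery were followed in FT293 cells, a derivative of the human embryonic kidney line HEK293 with a single site for a tetracycline-switched transgene, in 4 lines that expressed GFP alone or GFP-tagged HuR, TIA1 or TIAR. Members were all array probes that are not controls and whose gene name begins as that of an HSP90, HSP70 or HSP110 protein, the HSP60 and HSP10 pair, a small heat shock protein, a J-domain protein of classes DNAJA, DNAJB or DNAJC, or a subunit of the CCT chaperonin. This gave 130 probes of 90 gene names, out of 50599 probes and 36337 names. The choice was by gene name, made with earlier results of these data known.

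RNA was taken from all lines on day 3 of tetracycline, when expression of the tagged protein had been induced in every line, the GFP controls included. Each line was measured on 2 single-colour arrays, described by the submitters as independent biological replicates, so that p-values rest on the spread of 2 arrays a line. Each line carried a transgene driven by the same inducible promoter, and the GFP and HuR lines served as the comparators of the TIA lines. The proteins are RNA-binding regulators: TIA1 and TIAR are relatives that restrain translation under stress, and HuR is best known for stabilizing its target mRNAs.

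The ATP-driven machines of protein folding work as teams. HSP70 proteins grip unfolded stretches of a client, J-domain proteins bring the clients and start the ATP cycle, HSP110 proteins reset it, and clients then pass to HSP90 or to the barrel-shaped chaperonins, CCT in the cytosol and HSP60 with its lid HSP10 in mitochondria. Small heat shock proteins need no ATP and hold clients until the others act. Heat shock factor 1 raises many of these genes in heat or protein damage by binding inverted repeats of the unit GAA, whereas the endoplasmic reticulum (ER) has chaperones of its own under another element.

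Promoter sequences of 2 kinds are shown for genes described below, taken from RefSeq (GRCh38.p14), 5′ to 3′ on the gene's own strand and upstream of the start site, with the matched letters in capitals. The first is a run of 3 alternating units, GAANNTTC followed by NNGAA or TTCNNGAA followed by NNTTC, searched on both strands. HSPA8 (chr11:123062159-123062211, minus strand), HSP90AB1 (chr6:44247758-44247863, plus strand) and DNAJB6 (chr7:157336853-157336905, plus strand) hold it, and are shown because their RNAs differed between the lines. HSPB1 (chr7:76302471-76302518, plus strand) is shown for its shorter match of GAANNTTC alone. The second is the ER stress element, CCAAT and CCACG with 9 bases between, in HSPA5 (chr9:125241371-125241429, minus strand) and, reversed, in HSP90B1 (chr12:103930301-103930359, plus strand).
HSPA8: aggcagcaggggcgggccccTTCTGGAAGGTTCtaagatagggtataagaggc
HSP90AB1: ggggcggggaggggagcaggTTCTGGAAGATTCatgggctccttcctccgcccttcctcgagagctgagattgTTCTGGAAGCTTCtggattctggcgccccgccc
DNAJB6: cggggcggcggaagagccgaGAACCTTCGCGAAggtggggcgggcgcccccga
HSPB1: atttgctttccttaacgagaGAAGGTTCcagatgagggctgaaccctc
HSPA5: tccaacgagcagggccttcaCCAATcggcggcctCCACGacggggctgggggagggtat
HSP90B1: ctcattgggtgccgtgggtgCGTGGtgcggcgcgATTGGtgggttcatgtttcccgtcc

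Of the 90 gene names, 75 had a promoter window of 300 bases in RefSeq (250 before and 50 after a start site). The run of 3 units lay in 0.49% of all 35116 windows and in windows of 7 members, namely DNAJA1, DNAJB6, HSP90AA1, HSP90AB1, HSPA6, HSPA8 and HSPD1. A pair of units, which is part of that longer run, lay in 13.5% of windows and in those of 26 members. The ER stress element lay in 0.0769% of windows and in those of 2 members, HSPA5 and HSP90B1. Windows were counted singly, whereas a member counted where any of its windows matched, so these shares and member counts are not like for like.

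An array's values are given as log2 signal relative to its 75th percentile, a scale on which 1 unit is a 2-fold difference. Levels on this scale can be compared between lines for the same probe but not between probes. A gene was represented by its probe with the highest mean over the arrays. Tests were made with limma on the 4 arrays of a comparison, with Benjamini-Hochberg adjustment over all probes detected in at least 1 of the compared lines, that is, marked by the scanner software as well above background on both of its arrays. A gene rose or fell where its adjusted p was under 0.05, and was called where the change was also at least 2-fold. Of the 90 genes, 80 entered at least 1 comparison. The 10 that entered none include 6 that were well above background on the first GFP array alone, among them DNAJB3 and HSP90AB6P, and HSPA1A, a stress-inducible HSP70 gene.

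That first GFP array stood apart. It had 86% of its probes well above background against 53.2% to 58.5% on the others, and the leukocyte marker PTPRC read 1.12 on it and -4.66 to -3.94 elsewhere. Its part in the comparisons with GFP was not tested beyond leaving it out. Between the GFP arrays 8 of 77 members differed by 2-fold or more, against 1 of 79 between the HuR arrays and none between the arrays of either TIA line. Of 10 markers fixed for HEK293-type cells, 9 were well above background on all 8 arrays, as were 4 of 12 markers of other cell types (PTPRC, CD14, CDH5 and HBA2), while TTR, PECAM1, COL1A2 and HBB were so on at most 1 array. Of these 12 markers, 8 were higher on both TIA1 arrays than on both HuR arrays and 1 lower, and 6 were higher on both TIAR arrays and 0 lower. Readings mostly at background enter these counts. CD3E, TTR, COL1A2 and HBB, all among the 8, were well above background on at most 2 arrays, and COL1A2 and HBB are also among the 6. The share of all genes with such an order was not counted. HBA2, a globin gene, read 2.31 and 2.43 in TIA1, 1.37 and 1.60 in TIAR, -0.24 and -0.35 in HuR and 1.63 and 2.13 in GFP cells, and ALB, the gene of albumin, read -3.13 to -2.76 in the TIA lines and -5.94 and -5.42 in HuR cells. The summed signal of the 12, relative to each array's 75th percentile, was 6.53 to 6.98 in TIA1, 4.13 to 4.49 in TIAR, 1.84 to 1.93 in HuR and 4.91 to 6.29 in GFP cells, and its part in the differences from HuR was not tested. HBA2 gave the highest reading of the 12 on every array and weighs most in this sum, which adds probes whose levels cannot be compared. The main probe of TIAL1, the gene of TIAR, read 4.93 ± 0.08 (SD, n = 2) in TIAR cells and at most 2.49 on average in the other lines, while no probe of TIA1 or of ELAVL1, the gene of HuR, was highest in its own line; whether those probes lie in the inserted sequences was not tested. GFP and TIA1 arrays lay in row 1 of the slide and HuR and TIAR arrays in row 2, so that row and line cannot be told apart except in TIA1 versus GFP and TIAR versus HuR.

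TIA1-expressing cells were compared with HuR-expressing cells to see how the chaperone RNAs differ between lines that carry RNA-binding proteins of different kinds. Of 7 tested small heat shock proteins 4 rose in TIA1 cells, while of 9 HSP70 genes 2 rose and 4 fell and of 8 HSP90 genes 1 rose and 2 fell. In this comparison 6 of 80 tested members (7.5%) were called higher and 0 lower, beside 8.44% and 4.73% of all 21219 genes tested. By the adjusted p alone 16 members (20%) rose and 18 (22.5%) fell, beside 24.2% and 17.3% of all genes. The median log2 fold change was -0.10 over the members and 0.08 over all genes. The share of members that rose was thus below the background and the share that fell above it, and without HuR 1 or HuR 2 only 6 and 4 members rose and 1 fell in each case. In bulk RNA, fewer cells of a kind and less RNA per cell cannot be told apart.

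TIAR cells were compared with the same HuR arrays, so the comparisons share their controls and are given side by side. Here 5 of 80 members were called higher and 1 lower, beside 7.38% and 2.84% of all 21500 genes. One of the higher calls, DNAJC15, rests on a fitted value against HuR arrays at background, and its bound is under 2-fold. By the adjusted p alone 10 (12.5%) rose and 20 (25%) fell, beside 18.7% and 12.2% of all genes. The median was -0.19 over the members and 0.06 over all genes. These counts rested on both HuR arrays, since 2 members were called without HuR 1 (both higher), 0 without HuR 2, and none fell by the adjusted p in either case.

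**Figure D1:**
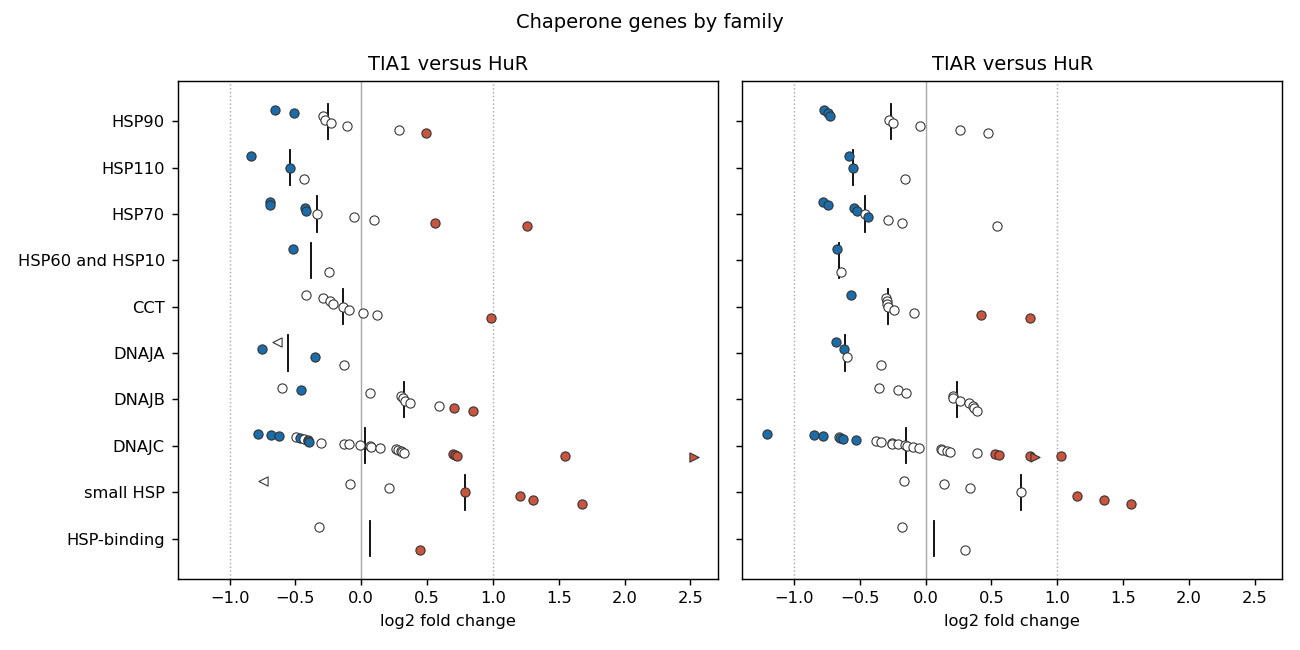
Log2 fold change of each tested chaperone gene (x axis) by family (rows), for TIA1 versus HuR (left) and TIAR versus HuR (right). Each point is a gene, filled red where it rose and blue where it fell at an adjusted p under 0.05 and open otherwise; triangles are lower bounds for probes not well above background in one line, black bars are family medians and dotted lines mark 2-fold. Small heat shock proteins lie mostly to the right, with medians of 0.79 and 0.72 (0.22 and 0.36 with the authors' normalized values). HSP110 and HSP70 proteins lie mostly to the left.

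Among the small heat shock proteins, 4 of 7 tested genes rose in TIA1 cells, 3 of 7 rose in TIAR cells and none fell in either. Beside these and the family counts below, 24.2% of all genes rose and 17.3% fell in TIA1 cells, and 18.7% and 12.2% in TIAR cells. With the authors' normalized values 3 small heat shock proteins rose and 1 fell in TIA1 cells, and 4 rose and 0 fell in TIAR cells. The family medians were then 0.22 and 0.36, and with quantile normalization 0.49 and 0.38. HSPB1, known as HSP27, binds partly unfolded proteins and actin filaments. Its representative probe (hg19, chr7:75933451-75933510) read 5.19 and 5.04 in TIA1 cells, 4.58 and 4.58 in TIAR cells, 3.53 and 3.34 in HuR cells and 3.39 and 3.77 in GFP cells. All 4 arrays of the TIA lines were above all 4 of the other lines. Against HuR the RNA was 3.20-fold higher in TIA1 cells (log2 fold change 1.68, standard error 0.12, limma adjusted p = 0.00308) and 2.22-fold higher in TIAR cells (1.15, standard error 0.11, adjusted p = 0.00771), although the TIAR call was lost without either HuR array (adjusted p up to 0.0714).

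The other HSPB1 probes went the same way. A neighbouring probe (chr7:75933550-75933609) rose by 1.15 in TIA1 and 0.62 in TIAR cells on the log2 scale. A probe near the start of the gene (chr7:75931924-75931983) was not detected on the HuR arrays, and gave at least 8.38-fold more signal in TIA1 and at least 7.68-fold more in TIAR cells than in HuR cells. On the GFP arrays this probe read -2.88 and -6.21, so only the first of them approached the TIA lines, which lay between -3.22 and -2.90.

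HSPB2, a small heat shock protein of muscle that binds the myotonic dystrophy kinase, was dim in all lines. Its probe (chr11:111784741-111784800) read -3.83 and -3.70 in TIA1, -3.54 and -3.48 in TIAR and -4.77 and -5.37 in HuR cells, and was at background on both GFP arrays. Against HuR it was 2.47-fold higher in TIA1 (log2 fold change 1.30, standard error 0.23, adjusted p = 0.016) and 2.95-fold higher in TIAR cells (1.56, standard error 0.23, adjusted p = 0.015). With the authors' normalized values the changes were 0.54 and 0.50, and the adjusted p passed the threshold in neither comparison without HuR 2 (up to 0.0634 and 0.0614 over all settings). HSPB9, a family member known from testis and tumors, read -1.81 and -2.05 in TIA1, -1.93 and -1.64 in TIAR and -3.09 and -3.19 in HuR cells (chr17:40275148-40275207). It rose by 1.20 (adjusted p = 0.00526) in TIA1 and 1.35 (adjusted p = 0.00832) in TIAR cells, and neither call held without HuR 2. With the authors' normalized values the changes were 0.71 and 0.755, under 2-fold, as was the TIA1 change with quantile normalization. The GFP arrays of HSPB9, at -2.15 and -2.17, lay next to the TIA lines, so that HuR was the line apart. HSPB3, another muscle form, passed in TIA1 cells only (0.79, adjusted p = 0.0402, against 0.72 and 0.0608 in TIAR), and its TIAR minus TIA1 difference of -0.07 did not pass (adjusted p = 0.861). HSPB8, which works with BAG3 in disposing of misfolded proteins, and HSPB11, an intraflagellar transport protein, gave values between -0.16 and 0.21 and did not pass. HSPB6, a small heat shock protein of muscle, did not pass either (adjusted p = 0.115 and 0.141). Its fitted value of -1.08 in TIA1 cells was the lowest of the family. Its TIAR minus TIA1 difference of 1.42 was the family's highest and did not pass. HSPB7 was not tested.

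**Figure D2:**
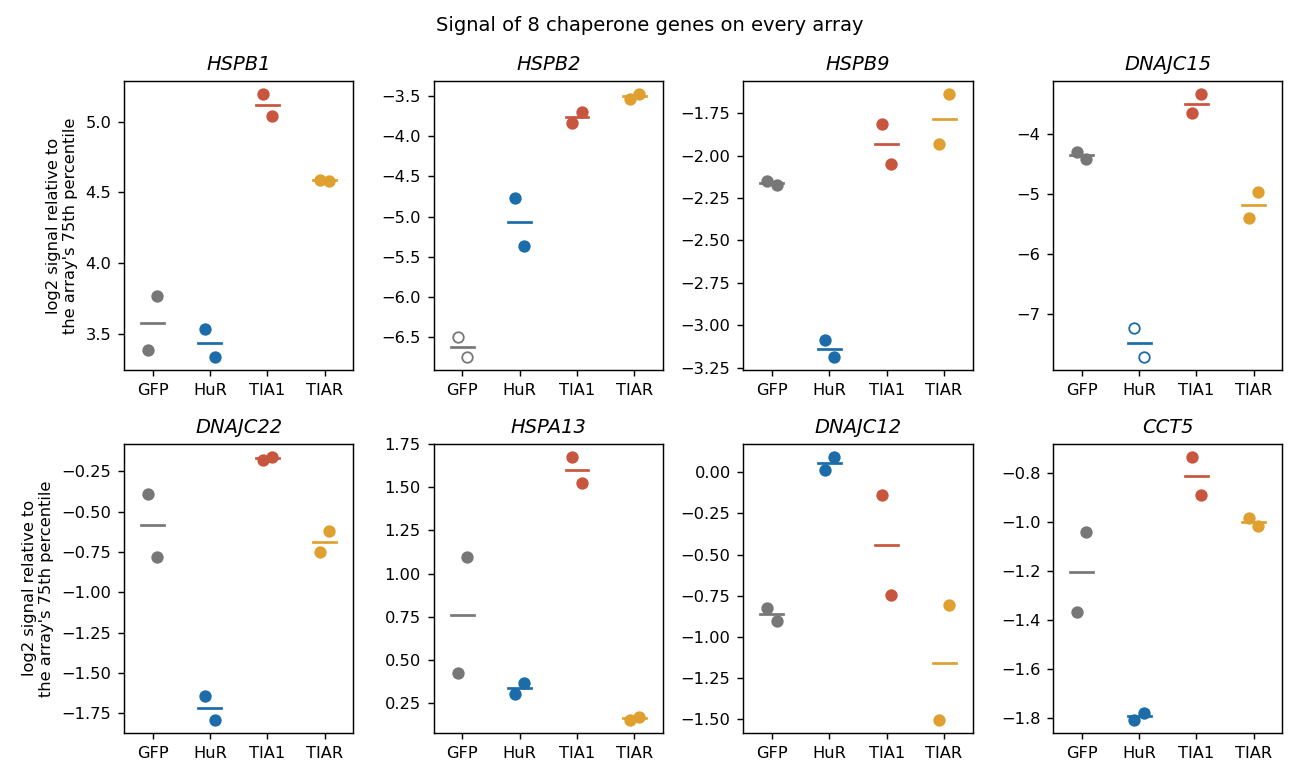
Log2 signal relative to the array's 75th percentile (y axis, scaled per gene) of 8 genes on every array, by line (x axis). Points are arrays, open where the probe was at background on both arrays of the line, and bars are means of 2 arrays. HSPB1 was higher on all 4 TIA1 and TIAR arrays than on the others, HSPA13 was high in TIA1 cells, and DNAJC15 was lowest in HuR cells.

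Of 9 tested HSP70 genes, 2 rose and 4 fell in TIA1 cells and 0 rose and 5 fell in TIAR cells. HSPA8, the constitutive HSP70 of the cytosol, read 5.27 and 5.32 in HuR, 4.92 and 4.82 in TIA1, and 4.72 and 4.79 in TIAR cells, with no overlap between HuR and either TIA line. It fell by 0.43 (standard error 0.10, adjusted p = 0.0304) in TIA1 and by 0.54 (standard error 0.10, adjusted p = 0.0227) in TIAR cells on the log2 scale. The GFP arrays disagreed at 4.20 and 5.22, the first below and the second above both TIA lines. HSPA8 has further probes annotated to other transcripts, which fell by more, up to 1.24 in TIA1 and 1.04 in TIAR cells.

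Of 3 HSP110 genes, whose proteins reset the HSP70 cycle by exchanging its nucleotide, 2 fell in each comparison, and HSPA4L did not pass (-0.43 and -0.16). HSPA4 read 5.23 and 5.14 in HuR, 4.35 and 4.34 in TIA1 and 4.56 and 4.70 in TIAR cells. It fell by 0.84 (standard error 0.09, adjusted p = 0.00609) and by 0.55 (standard error 0.11, adjusted p = 0.0267). HSPH1 fell by 0.54 (adjusted p = 0.0452) and 0.58 (adjusted p = 0.0215), and all 4 TIA1 and TIAR arrays, at 3.33 or less, were below the HuR and GFP arrays, at 3.48 to 4.01. DNAJA2, a J-domain partner of HSP70, fell by 0.76 (adjusted p = 0.00953) and 0.68 (adjusted p = 0.0164), with GFP arrays at -0.09 and 0.30 on either side of the TIA arrays at 0.10 to 0.23. DNAJB1, the heat-inducible HSP40, fell in TIA1 cells by 0.46 (adjusted p = 0.0229), whereas its TIAR value was -0.21 (adjusted p = 0.235). DNAJA1 did not pass in either line (-0.13 and -0.34), nor did DNAJA4, whose HuR arrays differed by over 2-fold (-3.83 and -5.86).

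The inducible HSP70 genes gave no such call. HSPA1B read 4.89 and 4.45 in HuR cells and 4.13 to 4.41 in the TIA lines, differences of -0.34 (adjusted p = 0.201) and -0.46 (adjusted p = 0.13). The probe of its near-identical neighbour HSPA1A was well above background on only 3 arrays, 1 each of GFP, TIA1 and TIAR, and was not tested. It read -4.80 and -5.19 in TIA1, -5.09 and -5.60 in TIAR, -7.66 and -8.02 in HuR and -5.59 and -7.06 in GFP cells. All 4 TIA readings were thus above both HuR readings, which were at background. HSPA6, a strictly inducible HSP70 that is silent without stress in most cells, read -4.38 and -4.64 in HuR and -3.97 and -3.92 in TIA1 cells and rose by 0.56 (adjusted p = 0.0299), against 0.54 (adjusted p = 0.13) in TIAR cells. Among less usual HSP70 relatives, HSPA12A fell by 0.69 and 0.52 and the testis form HSPA2 by 0.42 and 0.78.

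HSP90 takes clients from HSP70 and has a constitutive and an inducible cytosolic form, whose responses were not tested against each other. HSP90AB1, the constitutive form, read 4.99 and 4.98 in HuR, 4.49 and 4.46 in TIA1 and 4.17 and 4.31 in TIAR cells. It fell by 0.51 (standard error 0.09, adjusted p = 0.0161) and 0.74 (standard error 0.10, adjusted p = 0.014), and the second HSP90AB1 probe fell by 0.57 and 0.70. The GFP arrays, at 3.87 and 4.88, spread across this whole range. HSP90AA1, the inducible form, had 3 probes that disagreed. Its representative probe gave -0.27 (adjusted p = 0.119) in TIA1 and -0.04 (adjusted p = 0.846) in TIAR cells, while another rose by 0.48 (adjusted p = 0.0382) in TIA1 cells.

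Some probes on the HSP90 list are named for processed copies, such as HSP90AB5P, which fell by 0.66 and 0.73, and HSP90AA2, which rose by 0.49 in TIA1 cells. How far those probes also read their parent genes was not tested. Both HSP90AB1 and HSPA8 carry the run of 3 GAA units printed above, and so do DNAJB6 and HSPA6, which rose in TIA1 cells. Over the 7 members with that run, 2 rose and 2 fell in TIA1 cells, beside 24.2% and 17.3% of all genes. In TIAR cells 0 rose and 2 fell, beside 18.7% and 12.2%.

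Mitochondrial members went both ways, with DNAJC15, described below, higher and others lower. HSPA9 (mortalin), the HSP70 that pulls proteins into the matrix, read 3.36 and 3.35 in HuR, 2.78 and 2.54 in TIA1 and 3.01 and 2.83 in TIAR cells. It fell by 0.69 (standard error 0.12, adjusted p = 0.0155) in TIA1 and by 0.44 (standard error 0.11, adjusted p = 0.0491) in TIAR cells, with the GFP arrays at 2.49 and 2.78 beside the TIA arrays. HSPE1, the lid of the mitochondrial chaperonin, read 6.28 and 6.20 in HuR, 5.75 and 5.70 in TIA1 and 5.54 and 5.60 in TIAR cells, and fell by 0.51 (adjusted p = 0.0178) and 0.67 (adjusted p = 0.0148). Its GFP arrays, at 5.46 and 6.34, again spread wider than any other line. HSPD1, the barrel itself, which shares a promoter region with HSPE1, gave -0.24 (adjusted p = 0.0977) and -0.64 (adjusted p = 0.0922) and did not pass. Among J-domain proteins of mitochondria, DNAJA3 fell by 0.35 and 0.62, DNAJC19, a part of the import motor, by 0.69 and 0.63, and DNAJC11, which is tied to the inner membrane's folds, by 0.39 and 0.53.

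**Figure D3:**
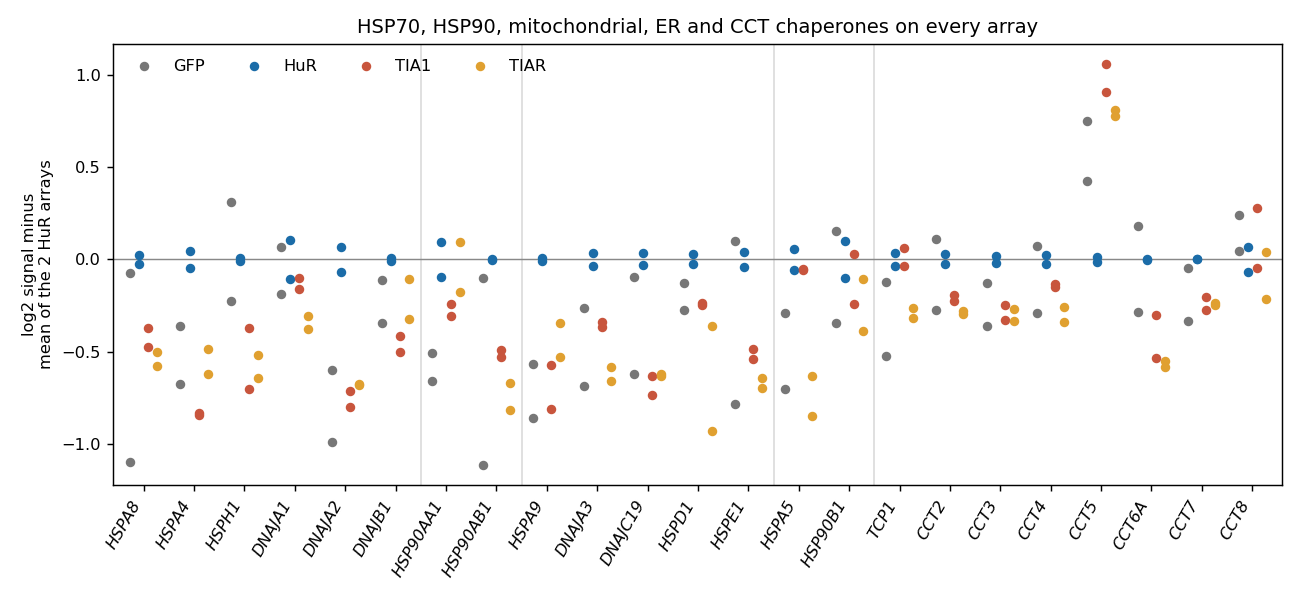
Log2 signal minus the mean of the 2 HuR arrays (y axis) for 23 genes on every array, ordered as cytosolic HSP70 team, HSP90, mitochondrial, ER and CCT genes and divided by grey lines. Points are arrays, coloured by line. HSPA4, DNAJA2, DNAJA3 and DNAJC19, which fell in both comparisons with HuR, are shown though outside the core set of named chaperones. HSPB1, HSPA1A, HSPA1B and CCT6B of that set are not shown, so the share of points below 0 depends on this choice. Most TIA1 and TIAR points lie below 0, the CCT5 points of both TIA lines lie above it, and the paired GFP points lie far apart for HSPA8, HSP90AB1 and HSPE1.

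The CCT chaperonin folds actin and tubulin in a ring of 8 subunits. CCT2, CCT3, CCT4, CCT7 and CCT8 passed in neither comparison, with log2 fold changes between -0.30 and 0.12. TCP1, the first subunit, gave 0.01 in TIA1 and -0.29 in TIAR cells by its representative probe, while another of its probes fell by 0.54 and 0.55. CCT6A fell in TIAR cells by 0.57 (adjusted p = 0.0184) and gave -0.42 (adjusted p = 0.053) in TIA1 cells. CCT6B, its testis-enriched relative, rose by 0.42 in TIAR cells (adjusted p = 0.0447).

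CCT5 was the exception within the ring. Its only probe read -0.73 and -0.89 in TIA1, -0.98 and -1.02 in TIAR, -1.81 and -1.78 in HuR and -1.37 and -1.04 in GFP cells, so that the HuR arrays were the lowest. It rose by 0.98 (standard error 0.10, adjusted p = 0.00542) in TIA1 cells, just short of 2-fold, and by 0.79 (standard error 0.09, adjusted p = 0.00999) in TIAR cells. No second probe was there to compare.

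J-domain proteins of class C are the most varied, since each ties HSP70 to a particular place or task, and their changes ran both ways. Of 26 tested, 5 rose and 6 fell in TIA1 cells, beside 24.2% and 17.3% of all genes. In TIAR cells 5 rose and 6 fell, beside 18.7% and 12.2%. DNAJC15, a J-domain protein of the mitochondrial inner membrane that restrains respiratory complex I, was measured by a single probe (chr13:43683245-43683304). It read -3.65 and -3.34 in TIA1, -5.40 and -4.97 in TIAR, and -4.29 and -4.42 in GFP cells, and was at background on both HuR arrays. The signal was at least 5.75-fold higher in TIA1 cells than in HuR cells (limma adjusted p = 0.00225) and at least 1.78-fold higher in TIAR cells (adjusted p = 0.00842), where the authors' normalized values gave a log2 fold change of only 0.28 (adjusted p = 0.182). GFP cells, at least 3.17-fold above HuR cells (adjusted p = 0.143), lay between the TIA lines.

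DNAJC22, a membrane-spanning J-domain protein (chr12:49743280-49743339), read -0.18 and -0.16 in TIA1, -0.75 and -0.62 in TIAR, -0.39 and -0.78 in GFP and -1.64 and -1.79 in HuR cells. It was 2.92-fold higher in TIA1 than in HuR cells (log2 fold change 1.55, standard error 0.10, adjusted p = 0.00272) and 2.04-fold higher in TIAR cells (1.03, standard error 0.11, adjusted p = 0.00923), the latter being under 2-fold in 5 of the 11 other settings tried. As with HSPB9 and DNAJC15, the GFP arrays lay beside the TIA arrays and HuR cells were lowest. DNAJC12, which assists the aromatic amino acid hydroxylases, was the one member whose representative probe was called lower against HuR (chr10:69583073-69583132). It read -1.50 and -0.81 in TIAR cells and 0.01 and 0.09 in HuR cells. The fitted change was -1.21 (standard error 0.26, adjusted p = 0.0337), which was not called without HuR 1, without HuR 2 or without TIAR 1.

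Smaller rises of class C members were seen for DNAJC5, the cysteine string protein of synaptic vesicles (0.70 in TIA1 and 0.79 in TIAR cells), and for DNAJC28 (0.73 and 0.56). DNAJC30 was not called by its representative probe, but its other probe rose by 1.18 in TIA1 cells. Falls besides the mitochondrial ones included DNAJC24, a diphthamide synthesis factor (by 0.47 and 0.65), DNAJC2, which sits on the ribosome (by 0.85 in TIAR cells), and DNAJC10, an ER reductase (by 0.62 in TIA1 cells).

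Of 10 tested class B members, 2 rose and 1 fell in TIA1 cells and none passed in TIAR cells, with medians of 0.33 and 0.24. DNAJB2, a neuronal member that delivers clients to the proteasome, read 2.41 and 2.39 in TIA1, 1.67 and 1.84 in TIAR and 1.61 and 1.49 in HuR cells, and rose in TIA1 cells by 0.85 (standard error 0.10, adjusted p = 0.0064). DNAJB6, a strong suppressor of polyglutamine aggregation, has a long nuclear and a short isoform, and its probes for them parted. Both probes of the short transcript (NM_005494, chr7:157178663-157178722 and chr7:157178557-157178616) rose in TIA1 cells, by 0.71 (adjusted p = 0.00951) and 0.58 (adjusted p = 0.027), and gave 0.26 and 0.36 in TIAR cells without passing.

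The probe of the long DNAJB6 transcript (NM_058246, chr7:157209570-157209629) fell instead. It read 1.24 and 1.12 in HuR, 0.71 and 0.42 in TIA1, and 0.01 and -0.13 in TIAR cells, with GFP arrays at 0.66 and 0.89. The fall was 0.62 (standard error 0.14, adjusted p = 0.0297) in TIA1 and 1.25 (standard error 0.11, adjusted p = 0.00669) in TIAR cells. Of 25 members with several tested probes, DNAJB6 was the only one in the comparison of TIA1 with HuR whose probes passed in opposite directions. The signs of all 3 probes held under the other background correction, quantile normalization and the authors' normalized values, and when each array was left out, although without HuR 1, or without HuR 2, none of them passed in TIA1 cells and the long probe missed the threshold in TIAR cells (adjusted p = 0.0641 and 0.0628).

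**Figure D4:**
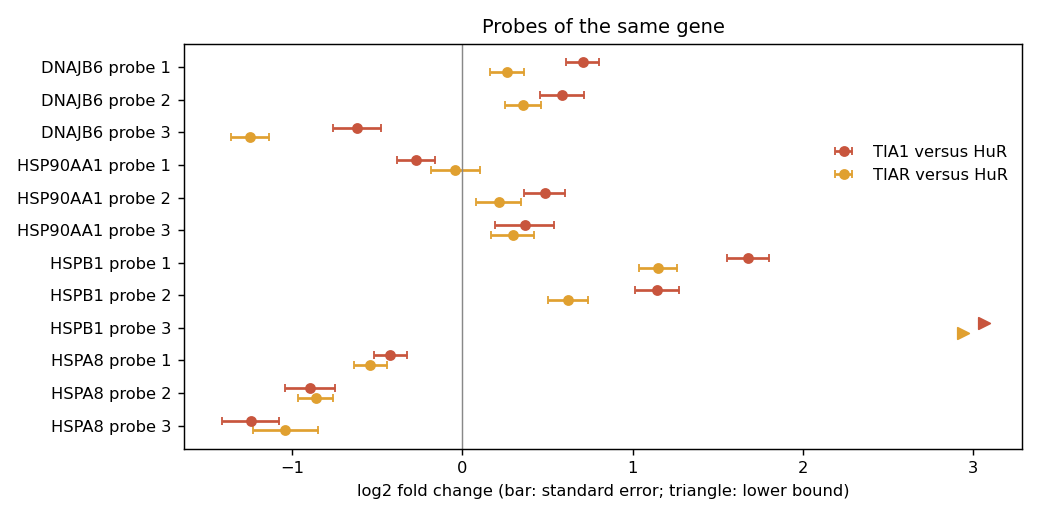
Log2 fold change (x axis) of each probe of DNAJB6, HSP90AA1, HSPB1 and HSPA8 against HuR, for TIA1 (red) and TIAR (yellow). Bars are standard errors, and triangles are lower bounds for a probe not well above background in HuR cells. The third DNAJB6 probe, of the long transcript, lies left of 0 at -0.62 and -1.25 while the other DNAJB6 probes lie right of it.

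The ER has its own HSP70, HSPA5 (BiP), and HSP90, HSP90B1 (GRP94), which carry the printed ER stress element. HSPA5 read 1.51 and 1.40 in HuR, 1.40 and 1.40 in TIA1, 0.60 and 0.82 in TIAR and 0.75 and 1.16 in GFP cells. It fell by 0.74 (standard error 0.12, adjusted p = 0.0201) in TIAR cells and gave -0.06 (adjusted p = 0.674) in TIA1 cells, and the difference of -0.69 between TIAR and TIA1 cells did not pass (adjusted p = 0.0683). HSP90B1 gave -0.11 and -0.25 and did not pass. Nor did DNAJB9 and DNAJB11, J-domain proteins of the ER lumen, with values between -0.15 and 0.36.

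TIAR cells were compared with TIA1 cells directly, since the proteins are close relatives. Of 79 members 2 were called, both lower in TIAR cells, and 0 were higher, beside 1.02% lower and 1.33% higher among all 20759 genes. By the adjusted p alone the same 2 fell, beside 1.57%, and 0 rose, beside 1.84%. HSPA13, an HSP70 relative of the microsomes that lacks the client-binding domain (chr21:15743576-15743635), read 1.68 and 1.52 in TIA1 cells, 0.15 and 0.17 in TIAR, 0.30 and 0.37 in HuR and 0.42 and 1.10 in GFP cells. It was thus high in TIA1 cells, where it was 2.40-fold above HuR (log2 fold change 1.26, standard error 0.11, adjusted p = 0.0037), and 2.71-fold lower in TIAR than in TIA1 cells (-1.44, standard error 0.12, adjusted p = 0.0234). DNAJC15 was 3.23-fold lower in TIAR than in TIA1 cells (-1.69, standard error 0.21, adjusted p = 0.0368). Neither call held with any of the 4 arrays left out, and with the replicate number as a block both had an adjusted p of 0.0818. DNAJC3, an ER protein that also restrains the kinases of eIF2, was 0.92 lower in TIAR cells, but at an adjusted p of 0.0646 it did not pass.

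The GFP line was the control for the tag. No member was called, or passed by the adjusted p, in TIA1 versus GFP (78 tested), TIAR versus GFP (79 tested) or HuR versus GFP (80 tested), and neither did any of the other genes (0% of all genes by limma in each). At an unadjusted limma p under 0.05 there were 11, 11 and 16 members, beside 21.4%, 16.1% and 16.9% of all genes. The paired test named in the study's methods called 1, 2 and 1 members without adjustment and 0 with it. Without the first GFP array, 3, 4 and 4 members were called, beside 7.27%, 5.23% and 4.47% of all genes higher and 4.22%, 1.6% and 4.04% lower.

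HSPB2 was among them in each comparison. With both GFP arrays kept, which were at background, its signal was at least 3.71-fold higher in TIA1 (adjusted p = 0.0954), at least 4.44-fold in TIAR (adjusted p = 0.116) and at least 1.51-fold in HuR cells (adjusted p = 0.189). HSPB1 was called higher in TIA1 cells (log2 fold change 1.35, standard error 0.17, adjusted p = 0.0296), and DNAJB4, an HSP40 of heart and muscle, in TIA1 (1.44, adjusted p = 0.0488) and TIAR cells (1.18, adjusted p = 0.0494). DNAJB4 read -3.08 and -3.03 in GFP, -2.16 and -2.22 in HuR and -1.93 to -1.36 in the TIA lines, with both TIA lines above both comparators. The remaining calls without the first GFP array were HSPB6 (1.93) and HSP90AB2P (-1.27) in TIAR cells, and HSPB6 (1.59), HSPB3 (-1.34) and DNAJC15 (-3.05) in HuR cells. These values rest on a lone GFP array, whose spread was taken to be that of the other line.

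Over all 4 lines, 11 of 80 members had every TIA1 and TIAR array above every HuR and GFP array, beside 13.4% of all 21835 genes, and 12 had them all below, beside 9.45%. The widest gaps above were those of HSPB2 (0.93) and HSPB1 (0.82), and those below of HSP90AB5P (0.39) and DNAJC25 (0.34). DNAJB4, DNAJB14, DNAJB6 and DNAJB2 were also above, as was HSPBAP1, which binds HSPB1 and rose by 0.45 in TIA1 cells, and HSPH1, HSPA1B, HSPA12A and DNAJC19 below. Of the 18 members that fell in TIA1 against HuR cells, 6 had both GFP arrays nearer the HuR mean and 4 both nearer the TIA1 mean; of the 20 that fell in TIAR cells, 4 and 6.

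The genes that work beside the chaperones were counted from lists, which were chosen with earlier results of these data known. For comparison, 24.2% of all genes rose and 17.3% fell in TIA1 cells against HuR, and 18.7% and 12.2% in TIAR cells. Of 20 cochaperones of HSP90 and HSP70, 9 fell in TIA1 and 8 in TIAR cells against HuR and none rose, and the list's medians were -0.37 and -0.34, where all genes had 0.08 and 0.06. CHORDC1, an HSP90 partner, read 0.47 ± 0.08 (SD, n = 2) in TIA1, 0.85 ± 0.23 in TIAR and 1.81 ± 0.12 in HuR cells, and was called in TIA1 cells (log2 fold change -1.34, standard error 0.11, adjusted p = 0.00377). BAG1, a nucleotide exchange factor of HSP70, was called there too (-1.10, standard error 0.10, adjusted p = 0.00426). Falls under 2-fold in both lines were those of BAG2, which restrains the ubiquitin ligase CHIP (0.87 and 0.95), of PPID, a cyclophilin on HSP90 (0.86 and 0.66), and of TRAP1, the mitochondrial HSP90 (0.84 and 0.94). FKBP4, STUB1 and AHSA1 fell in both lines as well, by 0.38 to 0.70. With the authors' normalized values 8 cochaperones fell in TIA1 and 6 in TIAR cells, and the medians were -0.305 and -0.17. With all 8 arrays in one fit 4 and 3 fell, and with no filter on dim probes 4 and 2. Without HuR 1 or HuR 2 only 2 cochaperones fell in TIA1 cells and 0 in TIAR cells, although the medians stayed between -0.41 and -0.26.

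Other lists were counted in the same way. Heat shock factors and their regulators had 1 of 4 fall in TIA1 cells (HSF4, by 0.54) and 1 rise in TIAR cells (HSBP1, by 0.61). Prefoldin and its relatives, which hand clients to CCT, had 0 of 8 pass in TIA1 cells and 1 fall in TIAR cells (PFDN6, by 0.62). Mitochondrial folding factors and proteases had 2 and 3 of 8 fall and none rise, with GRPEL1, the nucleotide exchanger of HSPA9, lower by 0.73 and 0.79. Of 17 genes of ER folding and stress, 2 rose and 5 fell in each comparison. Without HuR 1, or without HuR 2, 0 rose and 1 fell in TIA1 cells and none passed in TIAR cells, and with the authors' values 1 fell in TIAR cells, where the list's median turned from -0.16 to 0.02. DDIT3 (CHOP), a transcription factor of prolonged ER and eIF2 stress, rose by 0.81 in TIA1 cells and was called in TIAR cells (log2 fold change 1.07, standard error 0.14, adjusted p = 0.0122), whereas SIL1, the exchange factor of BiP, was called lower in TIA1 cells (-1.56, standard error 0.09, adjusted p = 0.00259). HERPUD1, a part of ER-associated degradation, was 0.92 higher in TIAR than in TIA1 cells (adjusted p = 0.0446), and so was SIL1, by 0.86 (adjusted p = 0.0442). Neither passed with the replicate block, with all 8 arrays in one fit, with no filter or with any of the 4 arrays left out.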

How the data were processed

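RNA of the 8 samples was measured on single-colour Agilent arrays with probe positions on hg19. Per the file headers, the authors deposited Agilent Feature Extraction 10.7.3.1 output, whose processed signal is a background-subtracted intensity with no normalization between arrays. The authors also deposited log2 values, which by their distributions were quantile-normalized with the TIAR arrays apart. These served as an alternative.

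Processed signals were put on the log2 scale relative to each array's 75th percentile (outlier spots left out, spots of a probe averaged). Tests used limma 3.58.1 (lmFit, eBayes) in R 4.3.3 with the data.table package (version 1.17.8), over all probes that passed the filter, and were tested on simulated data. Plots used matplotlib 3.10.9. For a bound ("at least N-fold"), the dim line's array was given the dimmest detected signal, or the probe's reading where that was higher. With 2 arrays a line, their number limits the precision.

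Named are a core set of chaperones, the called members, the member of each family with the widest span of line means, and members that passed by the adjusted p; the last, uncalled genes of the other lists and further probes were chosen after their values were seen. Members, lists and tests were chosen with earlier results of these data known. Alternatives were normexp with an offset of 50, quantile normalization, the authors' values, no filter or a stricter one, all 8 arrays in one fit, blocking on the replicate number, omitting each array in turn, the paired test of the methods, no minimum fold and any probe of a gene.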

Additional observations from a re-analysis of the deposited data

Results flagged for a closer look

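DNAJC15 and HSPA13 differed between the TIA lines in a direct test of TIAR against TIA1. DNAJC15 was -1.69 and HSPA13 was -1.44 on the log2 scale, TIAR minus TIA1. Across the 11 other settings the DNAJC15 difference ranged from -1.91 to -0.93 and that of HSPA13 from -1.51 to -1.36, and each missed the adjusted threshold in 7 of them, with adjusted p up to 0.245 and 0.233.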

How the results depend on the processing

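For TIA1 versus HuR, 6 members were called, and 5 to 8 with any array left out. With no minimum fold there were 34, by the paired t-test 0 after adjustment and 3 without it. With any probe of a gene counted, 7 were called higher and 2 lower, against 5 and 3 for TIAR versus HuR. For TIAR versus HuR, 6 were called, 2 with the authors' values, 30 with no minimum fold, 0 by the paired t-test with or without adjustment, and 0 to 6 with an array left out. For TIAR versus TIA1, 2 were called, 1 with all 8 arrays in one fit, 1 with normexp, 0 with no filter, 0 by the adjusted paired t-test and 0 to 0 with an array left out. The GFP comparisons had 0 calls. With all 8 arrays in one fit there were 3 for TIA1, 4 for TIAR and 4 for HuR; by the unadjusted paired t-test 1, 2 and 1; and with an array left out 0 to 16, 0 to 9 and 0 to 15, the highest values without GFP 2, which leaves the first GFP array alone. The cause of these shifts was not tested. Where leaving out an array left a lone one, it was assumed to vary like the other line's arrays.

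Changes by the adjusted p alone depended on the setting. Of the 18 falls in TIA1 cells, 17, 16 and 15 remained with normexp, quantile normalization and the authors' values, 7 with all 8 arrays in one fit and 1 with no filter. Of the 20 in TIAR cells, 19, 19 and 16 remained, then 4 and 0. Of the 16 rises in TIA1 cells, 16, 14 and 13 remained in the same order of settings, then 11 and 7. Of the 10 rises in TIAR cells, 9, 7 and 8 remained, then 7 and 4. Among the core set, the called members and the member of each family with the widest span, none that passed reversed its sign in the comparisons with HuR or between the TIA lines. This check did not cover the other named genes.

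Replicates that share a number did not vary together (correlations of their deviations between -0.09 and 0.18), so the numbers were not treated as pairs. With the replicate block, 6 members were called for TIA1 versus HuR, 6 for TIAR versus HuR and 0 for TIAR versus TIA1, where HSPA13 and DNAJC15 both had an adjusted p of 0.0818. By the adjusted p alone the block left 15 rises and 12 falls in TIA1 cells and 6 and 13 in TIAR cells.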
